A study of Mus musculus with 16 samples.

Results

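Invariant natural killer T (iNKT) cells that carried the less used beta chains Vbeta7 or Vbeta2 were examined by their T cell receptor (TCR) chains. A cell was called iNKT-type where its alpha chain (TRA) joined TRAV11, or the D or N copy of that segment, to TRAJ18, and it was kept here where its beta chain (TRB) used TRBV29, which encodes Vbeta7, or TRBV1, which encodes Vbeta2. The chain with the most unique molecular identifiers (UMIs, tags that count molecules) stood for the cell. This gave 124 cells, 73 with TRBV29 and 51 with TRBV1, of 645 iNKT-type cells and of 4787 cells in which both chains were read. The cells were chosen by segment names alone, and they were set against 373 cells with the same TRBV segments and another alpha chain.

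The study compared lymphocytes from orthotopic liver tumours, grown from the mouse hepatoma line Hepa1-6 placed into the left lobe of the liver of C57BL/6 mice. It asked what loss of Matr3, which encodes the nuclear RNA- and DNA-binding protein matrin 3, does to infiltrating T cells. The KO group was CD4creMatr3fl/fl and the CON group CD4creMatr3WT/WT, so both carried Cre under Cd4 control, and tumours were taken on day 14 or on day 5. There were 2 TCR libraries in each of the 4 groups, KO and CON at day 14 and KO and CON at day 5. Cd4-driven Cre acts from the thymic stage at which T cells carry CD4, so its action is not limited to mature CD4+ T cells. Receptor tables carry no Matr3 level, so the deletion was not checked in any library. The labels do not say whether the replicate libraries came from separate mice, so p-values measure only the spread between libraries, which may be technical.

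iNKT cells recognise glycolipids held by CD1d, an antigen-presenting molecule related to MHC class I, rather than peptides. In mice their alpha chain is almost the same in every cell, while the beta chain varies at its CDR3, the loop made where V, D and J segments are joined, and is drawn mostly from the Vbeta8 (TRBV13), Vbeta7 and Vbeta2 families. iNKT cells are abundant in mouse liver and release cytokines quickly once activated. The beta chain meets CD1d mainly through its CDR2 loop, which the V segment encodes, so Vbeta families can differ in how strongly they bind.

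The alpha chain is printed first, because it defines the cells. Of the 124 cells, 114 (91.9%, exact binomial 95% interval 85.7 to 96.1) carried the canonical alpha CDR3, against 488 of the 521 other iNKT-type cells (93.7%). All 124 alpha chains were named TRAV11, and all had a CDR3 of 15 residues. The 4 most frequent nucleotide forms differed at the fourth codon alone, which lies at the V-J join and encodes glycine in all of them (codon in capitals).
Alpha form of 36 cells: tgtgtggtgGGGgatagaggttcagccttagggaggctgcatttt
Alpha form of 34 cells: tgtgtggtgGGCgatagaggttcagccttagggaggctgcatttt
Alpha form of 24 cells: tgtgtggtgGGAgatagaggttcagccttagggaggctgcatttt
Alpha form of 18 cells: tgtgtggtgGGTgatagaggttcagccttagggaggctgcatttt
Most frequent variant, 4 cells: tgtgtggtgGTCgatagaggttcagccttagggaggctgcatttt
These forms were found in 8, 8, 6 and 7 of the 8 libraries, in the order printed, so the same amino acid chain was encoded in more than 1 way in every library. A second GGC form with another base elsewhere held 2 more cells. Positions here are counted from 1 at the first residue of the CDR3. The variant printed last encodes G4V, which was carried by 8 cells in 5 libraries (6.45%) over 3 nucleotide forms, against 16 of the other iNKT-type cells (3.07%). G4T and G4A were each carried by 1 cell, and G4A by 15 of the other iNKT-type cells (2.88%).

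The CDR2 of the beta segments is shown next, against that of TRBV13-2 (Vbeta8.2), the main iNKT segment, with capitals marking bases shared with TRBV13-2 at the same place.
TRBV29 CDR2: TCATAcGaTGtTGatAGt
TRBV1 CDR2: ctgcggaGTcCTGGggaC
TRBV13-2 CDR2: tcatatggtgctggcagc
TRBV29 shared 12 of the 18 bases with TRBV13-2, and TRBV1 shared 7. Each sequence was identical in every contig read over it, 270 of 270 for TRBV29, 386 of 386 for TRBV1 and 88 of 88 for TRBV13-2. In RefSeq genes of the mouse build GRCm38, TRBV1 lies on chromosome 6 at 40891296-40891885 and TRBV29 at 41271403-41271881, with TRBV13-2 between them at 41121396-41121832. TRBV29 is listed there as a V segment pseudogene, while the contigs analysed here were productive. TRAV11 and TRAJ18 lie on chromosome 14, at 53519303-53519859 and 54200777-54200842.

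The 8 libraries held 474 to 1404 cells with 376 to 1189 paired cells, and 7683 to 31936 UMIs on productive chains. The TRAV1 to TRAJ33 join of mucosal-associated invariant T cells was found in 4 cells. No productive gamma, delta or immunoglobulin chain was read. Libraries made for alpha and beta chains need not capture those chains, so this cannot show that such cells were absent. Between libraries 21 barcode pairs were shared among 5908 cells, 1 of them with a cell of the set, and none had the same TRB CDR3.

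The first question was how often iNKT-type cells used TRBV29 or TRBV1 at each time. The set held 6 and 5 cells in KO day 14 libraries, 9 and 6 in CON day 14 libraries, 14 and 22 in KO day 5 libraries, and 30 and 32 in CON day 5 libraries. As a share of iNKT-type cells this came to 33.3% and 16.1% in KO day 14 libraries and 23.1% and 26.1% in CON day 14 libraries. At day 5 the shares were 11.3% and 19.1% in KO libraries and 21.9% and 20.3% in CON libraries. Day 14 and day 5 libraries overlapped. The exact 95% intervals of single libraries were wide at day 14, such as 13.3 to 59.0 for the 18 iNKT-type cells of KO day 14 replicate 1. Day 14 libraries averaged 24.7% ± 7.13 and day 5 libraries 18.1% ± 4.71 (SD over 4 libraries each), a difference of 6.51 percentage points (two-sided exact permutation p = 0.222). A stratified permutation of 8 libraries has 36 relabelings and cannot give a p below 0.0556.

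As a share of all paired cells the set was far smaller at day 14. The values were 1.26% and 0.874% in KO day 14 libraries and 0.757% and 0.862% in CON day 14 libraries. At day 5 they were 3.37% and 5.85% in KO libraries and 6.64% and 5.26% in CON libraries. Every day 14 library lay below every day 5 library, with means of 0.937% ± 0.219 for day 14 and 5.28% ± 1.39 for day 5 (SD over 4 libraries each). The exact permutation p was 0.0556, the smallest the design allows.

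**Figure D1:**
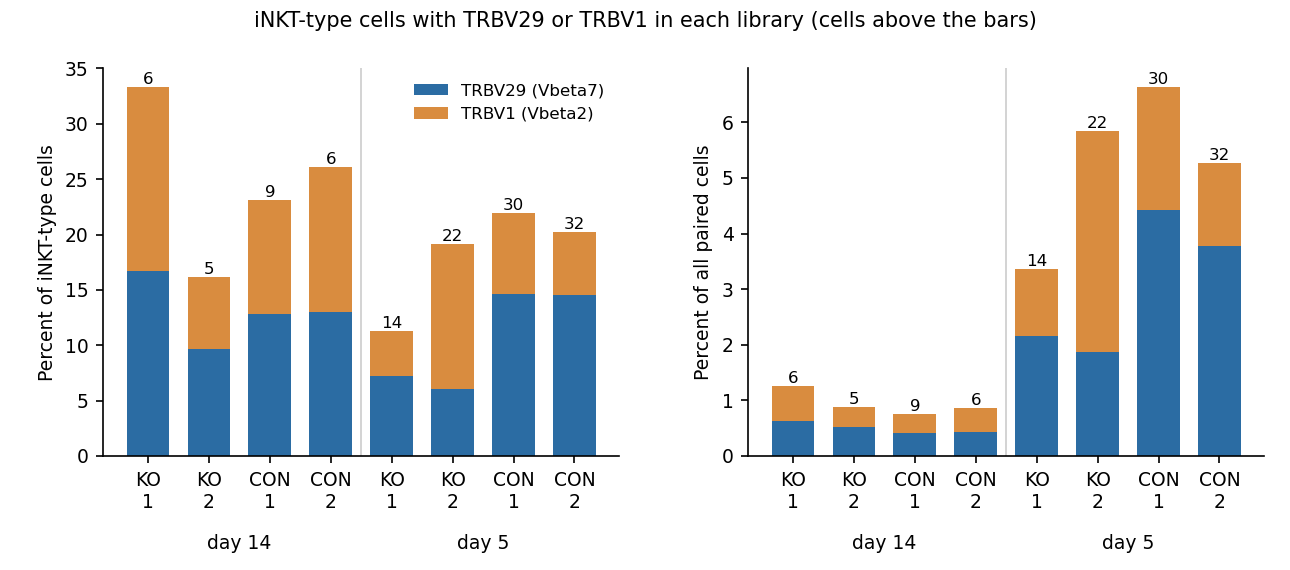
Share of iNKT-type cells (left axis panel, percent) and of all paired cells (right axis panel, percent) that were iNKT-type with TRBV29 (blue) or TRBV1 (orange), in each library, with replicate numbers under the genotype and cell counts above the bars. The share of iNKT-type cells overlaps between days, while the share of paired cells is 0.757% to 1.26% at day 14 and 3.37% to 6.64% at day 5.

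Both segments took part in the fall. Of all paired cells, iNKT-type TRBV29 cells were 0.501% ± 0.0965 on day 14 and 3.06% ± 1.24 on day 5 (SD over 4 libraries each), a log2 fold change of -2.61 ± 0.42 (SE; edgeR quasi-likelihood test, adjusted p = 0.000723). iNKT-type TRBV1 cells were 0.436% ± 0.134 on day 14 and 2.22% ± 1.25 on day 5, a log2 fold change of -2.29 ± 0.50 (edgeR, adjusted p = 0.00516). The fit covered 27 classes of TRBV segment and alpha type with at least 20 cells, and 40.7% of them were called, 29.6% as lower and 11.1% as higher at day 14. All 6 iNKT-type classes tested fell. These classes reached 20 cells mostly through day 5, so the filter itself favours iNKT-type classes that fell. Of iNKT-type classes below it, TRBV3 held 2 cells at each day, and TRBV31 held 0 at day 14 and 7 at day 5. Larger falls were fitted for iNKT-type TRBV13-1 (-3.32 ± 0.48, edgeR adjusted p = 0.000723), iNKT-type TRBV13-3 (-3.01 ± 0.71, edgeR adjusted p = 0.00436) and iNKT-type cells under the joint name TRBV12-2+TRBV13-2 (-2.99 ± 0.32, edgeR adjusted p = 0.000354), a name in the deposited tables that joins a pair of segments. The fitted fall was also larger for iNKT-type TRBV13-2, on 25 cells (-2.82 ± 0.95, edgeR adjusted p = 0.0255). The differences between these folds are tested below as shares within iNKT-type cells.

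The same TRBV segments beside another alpha chain did not pass the test between days at the main settings, and TRBV1 passed as higher at day 14 under 2 alternatives. TRBV29 with another alpha chain was in 2.20% ± 0.835 of paired cells on day 14 and in 2.35% ± 0.3002 on day 5 (SD over 4 libraries each), a log2 fold change of -0.08 ± 0.30 (edgeR, adjusted p = 0.958). Its sign turned with the scaling, to 0.27 with TMM factors. TRBV1 with another alpha chain was in 5.99% ± 0.789 on day 14 and in 4.67% ± 0.359 on day 5, a log2 fold change of 0.35 ± 0.19 (edgeR, adjusted p = 0.220). It rose with TMM factors, which moved the median class by 0.38, at 0.69 (edgeR, adjusted p = 0.0174), and with each clonotype counted once, at 0.55 (edgeR, adjusted p = 0.0339), while its adjusted p was 0.204 to 0.445 under the other alternatives. A class that rose was TRBV3 with another alpha chain, with a log2 fold change of 1.20 ± 0.25 (edgeR, adjusted p = 0.00516). Shares of cells are bound to each other, and cells with another alpha chain formed larger clones at day 14. With each clonotype counted once, the falls were -1.75 for iNKT-type TRBV29 and -1.37 for iNKT-type TRBV1 (edgeR, adjusted p = 0.000339 and 0.0257).

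The segments were next compared within iNKT-type cells, which takes out the size of the iNKT-type population. TRBV29 was in 16.7% and 9.68% of iNKT-type cells in KO day 14 libraries, 12.8% and 13.04% in CON day 14 libraries, 7.26% and 6.09% in KO day 5 libraries, and 14.6% and 14.6% in CON day 5 libraries. TRBV1 was in 16.7% and 6.45% in KO day 14 libraries, 10.3% and 13.04% in CON day 14 libraries, 4.03% and 13.04% in KO day 5 libraries, and 7.30% and 5.70% in CON day 5 libraries. KO day 5 replicate 2 was the library with more TRBV1 than TRBV29 cells, 15 against 7. Of 6 segments with at least 10 cells none passed between days (0.0% called by edgeR, no segment with an unadjusted p under 0.05, none by DESeq2). The log2 fold changes, day 14 over day 5, were 0.22 ± 0.45 for TRBV29 and 0.56 ± 0.53 for TRBV1 (edgeR, adjusted p = 0.923 and 0.919).

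Genotype was the study's main question. Of the 27 classes none passed between KO and CON over both days, at day 5 or at day 14 (0.0% called by edgeR in each), with 3, 1 and 3 classes at an unadjusted p under 0.05 and none called by DESeq2. The lowest p at day 5 belonged to iNKT-type TRBV29. These cells made up 2.16% and 1.86% of paired cells in KO day 5 libraries, against 4.42% and 3.78% in CON day 5 libraries. The groups did not overlap, which groups of 2 libraries can do without a difference. Many other classes separated at day 5 too, such as TRBV29 with another alpha chain (1.92% to 2.39% in KO, 2.43% to 2.63% in CON). So did TRBV1, TRBV13-1, TRBV13-3 and TRBV12-2+TRBV13-2 with another alpha chain, and iNKT-type TRBV13-3 and TRBV12-2+TRBV13-2. iNKT-type TRBV1, iNKT-type TRBV13-1 and TRBV3 with another alpha chain overlapped. How many of the 27 classes separated was not counted, so the separation of iNKT-type TRBV29 is not read as a result. The log2 fold change of iNKT-type TRBV29 was -1.01 ± 0.42, which missed the threshold over all classes (edgeR, unadjusted p = 0.0127, adjusted p = 0.344). At day 14 the order was the other way, with 0.628% and 0.524% in KO libraries against 0.421% and 0.431% in CON libraries. These day 14 shares rest on 3 and 3 KO cells and 5 and 3 CON cells, and the log2 fold change was 0.41 ± 0.78 (edgeR, adjusted p = 0.790).

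The difference between the KO effects at the 2 days was 1.43 ± 0.89 on the log2 scale for iNKT-type TRBV29 (edgeR, unadjusted p = 0.113, adjusted p = 0.760). None of the 27 classes passed that test (0.0% called), with 1 at an unadjusted p under 0.05 and none called by DESeq2. For iNKT-type TRBV1 the KO over CON log2 fold change was 0.49 ± 0.60 at day 5 and 0.34 ± 0.85 at day 14 (edgeR, adjusted p = 0.894 and 0.862). Its sign at day 5 rested on KO day 5 replicate 2, without which it was -0.59. Within iNKT-type cells TRBV29 had a KO over CON log2 fold change of -0.83 ± 0.40 over both days (edgeR, unadjusted p = 0.0414, adjusted p = 0.248) and TRBV1 of 0.24 ± 0.48 (edgeR, adjusted p = 0.952). None of the 6 segments was called (0.0%), with 1 at an unadjusted p under 0.05 and none called by DESeq2. Without KO day 14 replicate 1 TRBV29 passed at -0.98 (edgeR, adjusted p = 0.0357). For both segments together, the share of iNKT-type cells was 19.97% ± 9.48 in KO libraries and 22.8% ± 2.46 in CON libraries (SD, n = 4 each; exact permutation p = 0.5).

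Vbeta7 and Vbeta2 were then set against their use beside other alpha chains in the same library. TRBV29 was in 11.8% ± 3.77 of iNKT-type cells and in 2.799% ± 0.820 of cells with another alpha chain (SD, n = 8 libraries), and was higher in iNKT-type cells in 8 of 8 libraries. The log2 fold change was 1.92 ± 0.29 (edgeR with library in the model, adjusted p = 4.20e-09). TRBV1 was in 9.56% ± 4.40 of iNKT-type cells and in 6.42% ± 0.707 of cells with another alpha chain, and was higher in 5 of 8 libraries. Its log2 fold change was 0.35 ± 0.30 (edgeR, adjusted p = 0.261). Both segments are counted among the iNKT Vbeta families, and TRBV29 alone of them passed here.

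Of 21 segments tested 90.5% were called, 19.0% as higher and 71.4% as lower in iNKT-type cells. The joint name TRBV12-2+TRBV13-2 had the largest share, 48.8% ± 10.6 of iNKT-type cells and 6.31% ± 1.897 of cells with another alpha chain (log2 fold change 2.95 ± 0.24, edgeR adjusted p = 9.91e-22). TRBV3 was in 4 iNKT-type cells and 516 other cells (-3.82 ± 0.80, edgeR adjusted p = 1.06e-10). TRBV16 and TRBV12-1 were in 0 of 645 iNKT-type cells, which allows a share of up to 0.465% (3 divided by 645, an approximate 95% limit). They were in 5.37% ± 1.88 and 7.73% ± 5.16 of cells with another alpha chain, in the order named (SD, n = 8 libraries). A scaling by TMM factors, which takes the middle of all segments as unchanged, moved the median log2 fold change by -0.68. Under it 2 segments were higher and 17 lower, TRBV29 stayed higher at 0.79 (edgeR, adjusted p = 0.00601) and TRBV1 turned to -0.79 (edgeR, adjusted p = 0.0114). The direction for TRBV1 therefore depends on the scaling.

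The pair of segments was also compared with each other, a test added after the values were seen. For each library the ratio of TRBV29 to TRBV1 cells among iNKT-type cells was divided by that ratio among cells with another alpha chain. The log2 values were 1.83 and 2.51 in KO day 14 libraries, 0.99 and 1.58 in CON day 14 libraries, 2.17 and -0.02 in KO day 5 libraries, and 1.79 and 2.16 in CON day 5 libraries. At day 14 the iNKT-type ratios rest on few cells, 3 to 3 and 3 to 2 in KO libraries and 5 to 4 and 3 to 3 in CON libraries. A single cell more or less would move those values. The log2 values were above 0 in 7 of 8 libraries, with a mean of 1.63 ± 0.81 (SD, n = 8; exact sign-flip permutation p = 0.0156). The exception was again KO day 5 replicate 2, and this ratio does not change with the scaling.

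**Figure D2:**
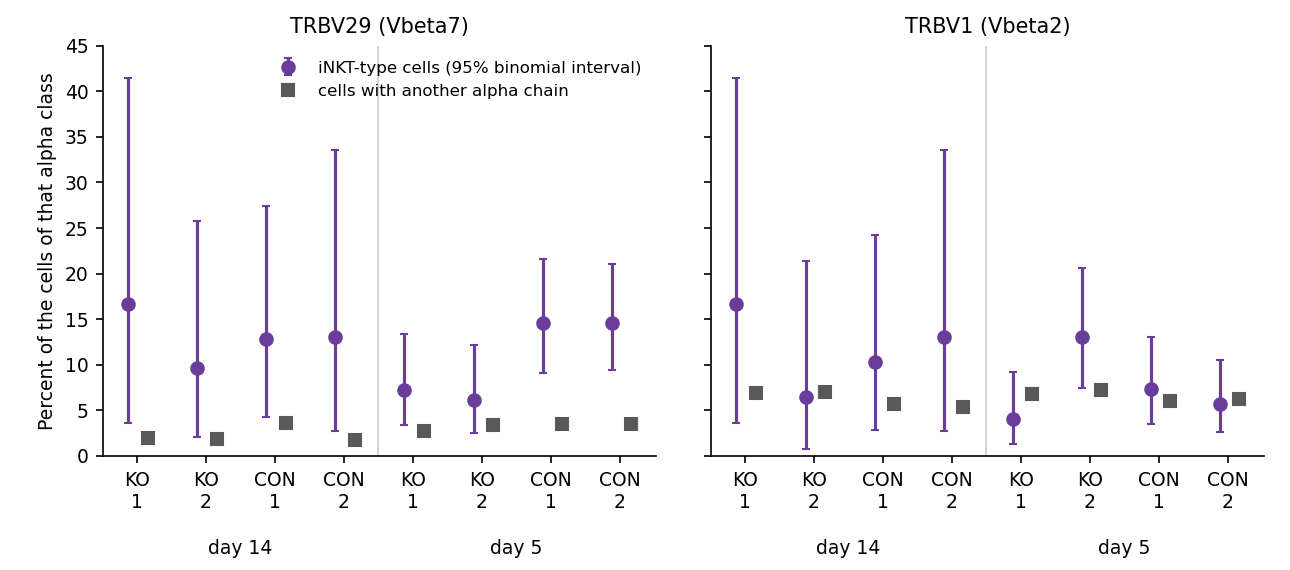
Percent of iNKT-type cells (circles, with exact 95% binomial intervals that cover counting error only) and of cells with another alpha chain (squares) that used TRBV29 (left) or TRBV1 (right), in each library. For TRBV29 the circle lies above the square in 8 of 8 libraries, and for TRBV1 in 5 of 8.

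The beta chain CDR3 was examined next, against cells with TRBV29 or TRBV1 and another alpha chain. Unless a segment is named, comparisons of CDR3, TRBJ, clone size and extra chains pool both segments. Their mix differs, with 73 TRBV29 and 51 TRBV1 cells in the set and 116 and 257 beside another alpha chain. Pooled differences can therefore mix V beta with alpha class. The shortest and longest CDR3 of each segment show how far the loop varied, with capitals for the bases between the common start of that V segment and the common end of that J segment.
TRBV29 with TRBJ1-1, CON day 5 replicate 1: tgtgctagcaTGGGACcagaagtcttcttt
TRBV29 with TRBJ2-1, CON day 14 replicate 2: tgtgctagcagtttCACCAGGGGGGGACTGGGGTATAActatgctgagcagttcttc
TRBV1 with TRBJ1-1, KO day 5 replicate 2: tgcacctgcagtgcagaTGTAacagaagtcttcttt
TRBV1 with TRBJ2-2, CON day 5 replicate 2: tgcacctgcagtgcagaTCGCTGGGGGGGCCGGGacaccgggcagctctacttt
These encode 10, 19, 12 and 18 residues in the order printed, and the bases in capitals number 6, 24, 4 and 17. The longest of them rests on 2 UMIs, and the others on 31, 5 and 23. Over clonotypes the number of such middle bases averaged 11.4 ± 0.884 in the set and 10.2 ± 0.478 beside another alpha chain (SD over 8 libraries), and it was higher in the set in 7 of 8 libraries. This count was made after the values were seen and was not tested.

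CDR3 loops of the set were slightly longer. The mean length per library was 14.3 and 14.2 residues in KO day 14 libraries, 14.4 and 14.7 in CON day 14 libraries, 14.1 and 14.4 in KO day 5 libraries, and 14.5 and 14.5 in CON day 5 libraries. In the same libraries the cells with another alpha chain had 13.8 and 14.2, 14.0 and 13.9, 14.0 and 14.5, and 14.2 and 13.6 residues. The set was longer in 7 of 8 libraries, by 0.372 ± 0.335 residues (SD, n = 8). The exact sign-flip permutation p was 0.0234, which became 0.0729 after adjustment over the 7 measures compared in this way. None of the 7 measures passed, and the lowest adjusted value a lone measure could reach was 0.0547. Against the other iNKT-type cells the difference was 0.0754 residues.

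Length differed between the segments in its shape. TRBV29 clonotypes of the set peaked at 15 and 14 residues, with 24 and 23 of 73, and 5 of 73 had 12 residues. Beside another alpha chain TRBV29 clonotypes peaked at 12 residues, with 25 of 89. TRBV1 clonotypes of the set had 13 of 51 at 13 residues and 15 of 51 at 15, whereas beside another alpha chain 57 of 180 had 14 and 64 of 180 had 15. Over cells the mean was 14.2 residues in the set and 13.4 beside another alpha chain for TRBV29, and 14.7 and 14.3 for TRBV1. These shapes pool the libraries and are a description.

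**Figure D3:**
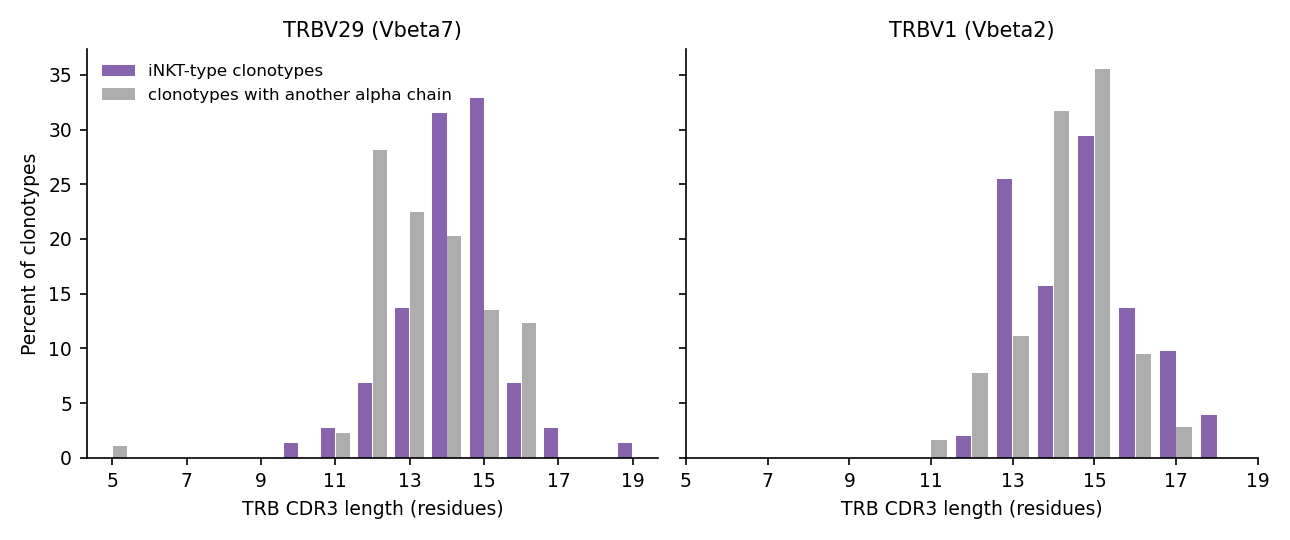
Percent of clonotypes by TRB CDR3 length in residues, for TRBV29 (left) and TRBV1 (right), in the iNKT-type set (purple) and beside another alpha chain (grey), pooled over 8 libraries. TRBV29 clonotypes of the set peak at 15 residues and those with another alpha chain at 12.

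The middle of the loop was compared by hydropathy, the mean Kyte-Doolittle value without 4 residues at either end, where a lower value is more polar. It averaged -1.18 ± 0.436 in the set and -0.766 ± 0.275 beside another alpha chain (SD, n = 8 libraries), and was lower in the set in 6 of 8 libraries (exact permutation p = 0.0859, adjusted p = 0.150). Median TRB UMIs were 13.6 ± 4.21 in the set and 13.2 ± 2.95 beside another alpha chain (SD, n = 8; exact permutation p = 0.844). Median TRA UMIs were 3.31 ± 0.843 in the set and 4.19 ± 1.25 beside another alpha chain (exact permutation p = 0.156, adjusted p = 0.219).

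J segment use is set by the same joining event as the CDR3. The set used all 12 TRBJ segments seen in these cells, most often TRBJ1-1 (19 cells), TRBJ2-3 (18 cells) and TRBJ1-5 (16 cells). None of the 12 segments passed against cells with the same TRBV and another alpha chain (0.0% called by edgeR; 1 with TMM factors), with 2 at an unadjusted p under 0.05 and 1 called by DESeq2. TRBJ1-5 was in 12.9% of the set and in 3.22% of cells with another alpha chain, or 3.72% of their clonotypes, with a log2 fold change of 1.74 ± 0.81 (edgeR, unadjusted p = 0.0252, adjusted p = 0.151). DESeq2 called it at 1.88 (adjusted p = 0.0153). Its 16 cells came from 5 libraries, 5 and 2 from KO day 5 libraries, 4 and 3 from CON day 5 libraries and 2 from CON day 14 replicate 1.

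TRBJ1-1 was in 15.3% of the set and 11.5% of cells with another alpha chain (log2 fold change 0.35 ± 0.49, edgeR adjusted p = 0.735). TRBJ2-3 was in 14.5% of the set and 14.2% of cells with another alpha chain (0.30 ± 0.48, edgeR adjusted p = 0.735). Both signs turn with TMM factors. TRBJ2-7, named after its value was seen, was in 12.1% of the set and 26.0% of cells with another alpha chain (-0.90 ± 0.42, edgeR unadjusted p = 0.0214, adjusted p = 0.151). With TMM factors, which moved the median TRBJ segment by -0.73, it was called at -1.75 (edgeR, adjusted p = 5.21e-05). Over clonotypes the share beside another alpha chain was 21.2%, and CON day 14 replicate 1 held 32 and KO day 14 replicate 1 held 23 of its 97 cells. The TRBJ2 cluster as a whole was in 53.7% ± 21.3 of the set and 65.1% ± 9.35 of cells with another alpha chain (SD, n = 8; exact permutation p = 0.203, adjusted p = 0.237).

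**Figure D4:**
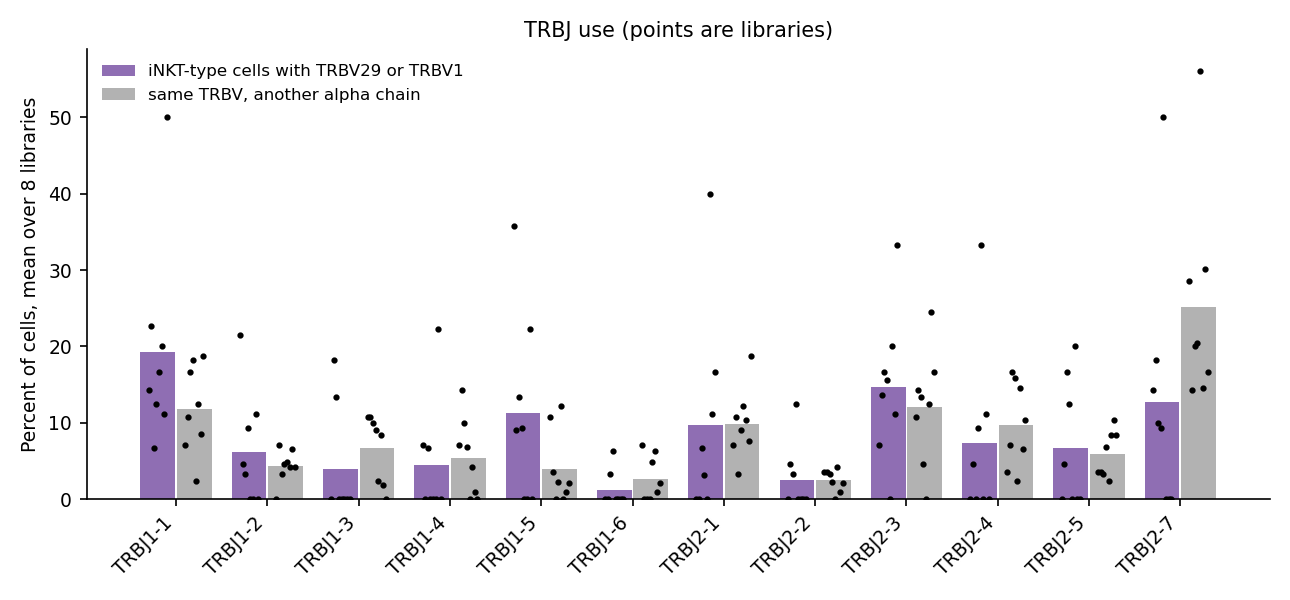
TRBJ use as percent of cells, mean over 8 libraries (bars) with each library as a point, in iNKT-type cells with TRBV29 or TRBV1 (purple) and in cells with the same TRBV and another alpha chain (grey). TRBJ1-5 averaged 11.2% in the set and 3.97% beside another alpha chain, TRBJ2-7 averaged 12.7% and 25.1%, and single libraries spread widely where the set has few cells.

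Clone size was compared next. Cells of a library count as 1 clonotype where their TRA and TRB segments and CDR3 nucleotides are identical, and a clonotype is called expanded when it holds 2 or more cells. All 124 cells of the set were single, with 0 of 26 expanded at day 14 and 0 of 98 at day 5. Their exact 95% intervals allow shares of up to 13.2% and 3.69%. Of the cells with the same TRBV and another alpha chain, 138 of 243 (56.8%, exact 95% interval 50.3 to 63.1) were expanded at day 14 and 9 of 130 (6.92%, 3.21 to 12.7) at day 5. By library the expanded share of those cells was 61.0% and 41.7% in KO day 14 libraries, 65.1% and 50% in CON day 14 libraries, 10.7% and 0% in KO day 5 libraries, and 0% and 13.6% in CON day 5 libraries. Intervals and limits cover counting error only.

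The set was lower in 6 of 8 libraries and equal at 0 in the others, by a mean of 30.3 percentage points, with an exact permutation p of 0.0313 (adjusted p = 0.0729). The set has few cells per library, and repeats of a clone are harder to see in few cells. Brought to the number of cells of the set in each library by exact expectation, the cells with another alpha chain would show 17.5% expanded at day 14, or 4.55 of 26 cells, and 4.34% at day 5, or 4.26 of 98 cells. The mean difference was then -10.4 percentage points (exact permutation adjusted p = 0.0729). The largest clone beside another alpha chain held 14 cells in CON day 14 replicate 1, with TRBV29 and TRBJ2-3 beside TRAV13-1 and TRAJ32. Other iNKT-type cells had 6 of 85 expanded at day 14 and 14 of 436 at day 5, and their largest clone held 4 cells.

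**Figure D5:**
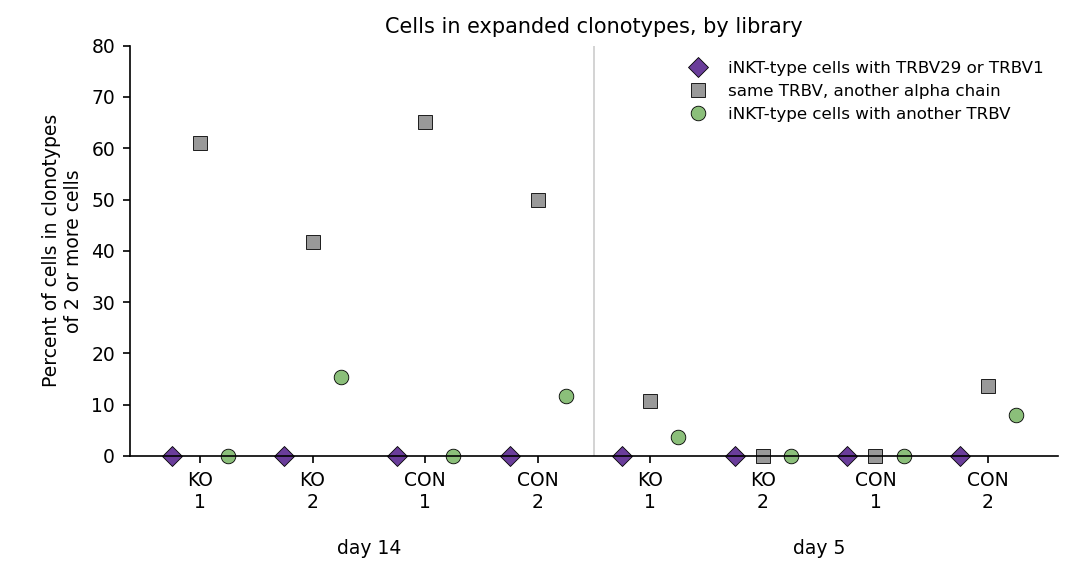
Percent of cells in clonotypes of 2 or more cells, in each library, for iNKT-type cells with TRBV29 or TRBV1 (diamonds), cells with the same TRBV and another alpha chain (squares) and iNKT-type cells with another TRBV (circles). The diamonds lie at 0 in all 8 libraries, and the squares lie between 41.7% and 65.1% at day 14.

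Few beta chains were found in more than 1 library in either kind of cell. Of distinct amino acid CDR3 with their V segment, 1 of 123 in the set and 4 of 261 beside another alpha chain were found in 2 or more libraries, and none was found in both kinds of cell. The shared chain joined TRBV29 to TRBJ1-5 in both CON day 5 libraries, and its nucleotides are printed with the differing bases in capitals.
CON day 5 replicate 1: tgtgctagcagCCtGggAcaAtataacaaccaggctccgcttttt
CON day 5 replicate 2: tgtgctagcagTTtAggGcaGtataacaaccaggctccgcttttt
They differ at 5 of 45 bases, so the same 15-residue loop was encoded differently in each library. Both cells carried ggt at the fourth alpha codon.

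Extra chains in the same cell were counted last. T cells usually keep 1 productive beta chain, while a second productive alpha chain is common. A second productive TRA chain was found in 1 of 124 cells of the set (0.806%) and in 32 of 373 cells with the same TRBV and another alpha chain (8.58%). Per library the means were 0.417% ± 1.18 and 9.50% ± 4.41 in that order (SD, n = 8), and the set was lower in 8 of 8 libraries. Day 14 libraries held 5 to 9 cells of the set, against shares of 4.17% to 12.5% beside another alpha chain. At such shares 0 is a common outcome in so few cells. The day 14 libraries could thus come out lower without a difference, and the p rests partly on them. The exact sign-flip permutation p was 0.0078, the smallest for 8 libraries, and 0.0547 after adjustment. Cells with at least 4 TRA UMIs were also thinned to 4, which kept 63 of the set and 232 beside another alpha chain. The shares were then 0% and 12.9% in that order, which are estimates rather than counts of the kept cells. The set held 1 cell with a second TRA before thinning, so its 0% adds little. A second chain can add to the TRA UMIs by which cells were kept, so the thinned shares do not settle the difference. Other iNKT-type cells had 5 of 521 (0.960%).

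The choice of the higher chain could move cells between the classes, so this was counted: 2 of the 32 had the iNKT-type chain as their second TRA. With these moved, a second TRA was in 3 of 126 cells (2.38%) against 30 of 371 (8.09%). Nonproductive TRA contigs were about as frequent in both, in 38 of 124 cells of the set (30.6%) and 115 of 373 (30.8%). A second productive TRB chain was in 11 of 124 cells of the set (8.87%), 28 of 373 cells with another alpha chain (7.51%), 27 of 521 other iNKT-type cells (5.18%) and 173 of 4787 paired cells (3.61%). In 6 of the 11 the second chain also used an iNKT Vbeta family, with 3 of the 6 under the joint name TRBV12-2+TRBV13-2. This was not set against how often beta chains of other cells use these families, so it does not show an excess. Over the 11 cells the second chain held 22.6% to 49.0% of the TRB UMIs of the cell. Whether these barcodes held more than 1 cell was not tested, and leaving them out did not change the call or the direction of any result described for the set between days.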

How the data were processed

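Single cells from Hepa1-6 liver tumours were captured on a 10x Genomics 5′ system per the labels' protocols. The submitters' processing notes name Cell Ranger 3.1.0, Seurat 4.0.0, R 4.1.2, CASAVA 1.8 and GRCm38 (mm10), with no role given. The deposited contig tables hold whole-number counts of UMIs and reads per contig, not normalized, per the file headers. Contig length was deposited too and was not compared. The 8 single-cell RNA samples were not analysed here.

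Cells and chains were kept where the authors called them cell, high-confidence and productive, and ties in UMIs went to the chain with more reads. Cells per class were tested with edgeR 4.0.16 (R 4.3.3; quasi-likelihood test, offset of paired cells, Benjamini-Hochberg over all classes of a fit, threshold 0.05), with DESeq2 1.42.0 as an alternative. Fits kept classes of 20 or more cells, or 10 or more within iNKT-type cells and for TRBJ. An SE is the fitted one, not below the counting error. Library values were tested by exact permutation (scipy 1.17.1, 2-sided, libraries with 5 or more cells of each kind). Doublets were not removed in the main fits: barcodes with at least 2 productive TRB chains, or at least 3 productive TRA chains, were left out as an alternative.

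On simulated data, 8-fold changes were called for 95% of changed classes between days, 89.5% for genotype at day 5, 95.5% at day 14, 97% for genotype over both days and 80% for its change between days (27 classes), 93.3% for TRBV use by alpha chain (21 segments), 84% by day and 98% by genotype within iNKT-type cells (6 segments) and 72% for TRBJ (12 segments). The simulation gave all classes the same fixed spread and took each rate pooled over the libraries. Simulated day 14 counts of iNKT-type classes were therefore above the real ones. These recovery rates do not hold for smaller changes, such as the genotype differences fitted here, or for the few cells at day 14. The text names TRBV29 and TRBV1 throughout, up to 4 other classes past the threshold with the smallest p in each fit, and TRBJ segments past it or among the 3 most used. Some further segments are named for comparison. The members, lists and tests were chosen with earlier results of these data known. Sequences come from the deposited contigs and positions from RefSeq genes of GRCm38. Other tools were Python 3.11.15 and pandas 2.3.3.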

Additional observations from a re-analysis of the deposited data

Results flagged for a closer look

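The share of paired cells that were iNKT-type with TRBV29 moved in opposite directions with genotype at the 2 days. KO minus CON was 0.150 percentage points at day 14, where both KO libraries lay above both CON libraries, and -2.09 percentage points at day 5, where both lay below. The test of this difference did not pass (log2 1.43 ± 0.89, edgeR adjusted p = 0.760), and the day 14 shares rest on 14 cells. Only shares of the set and of its segments were screened for such a turn. It is not particular to them, since cells with TRBV12-2+TRBV13-2 and another alpha chain turned in the same way. They were 4.52% to 5.53% of paired cells in KO day 5 libraries and 5.97% to 6.41% in CON day 5 libraries. At day 14 they were 5.07% to 5.23% in KO libraries and 3.78% to 4.02% in CON libraries.

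Chains that the choice of the strongest chain leaves out were also counted. The iNKT-type alpha chain was the second TRA in 13 cells, 0 to 4 per library. It was read at 84 barcodes that were not called cells, 0 to 21 per library. TRBV29 or TRBV1 was the second TRB in 7 iNKT-type cells that use another TRBV, 0 to 2 per library. Counts above 3 over all libraries were flagged. They were not set against how often other chains are left out in this way, so they do not show an excess. No control library without these cells was analysed, and whether they come from free RNA or from more than 1 cell in a droplet was not tested.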

How the results depend on the processing

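The falls of iNKT-type TRBV29 and TRBV1 between days kept their direction and passed under every alternative run, with log2 fold changes of -2.83 to -2.38 and -2.55 to -1.90 when single libraries were left out. Of 621 recomputed values for 41 results with a direction, 590 kept their direction and side of the threshold, and of 142 recomputed counts of calls for 9 comparisons, 132 were within 1.5 times the main count. Counts of calls that moved by over 1.5 times were, with single libraries left out, 7 to 12 classes between days (7 without CON day 5 replicate 2 or CON day 14 replicate 2), 0 to 1 for KO against CON at day 14 and for the KO effect at day 14 minus that at day 5, and 0 to 1 for genotype within iNKT-type cells, where TRBV29 ranged from -0.98 to -0.72. TMM factors called 1 segment for genotype within iNKT-type cells and 1 TRBJ segment (TRBJ2-7, -1.75), DESeq2 called 1 TRBJ segment, and day 14 libraries alone called 7 segments between alpha classes.

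Signs turned as follows, with no call unless given. With TMM factors TRBV1 by alpha chain was -0.79 (called), TRBV29 with another alpha chain was 0.27 between days, TRBV1 with another alpha chain was -0.19 for the change of the KO effect, TRBJ1-1 was -0.31 and TRBJ2-3 -0.35. TMM moved the median class by 0.38 between days and the median TRBJ segment by -0.73. With single libraries left out, TRBV29 with another alpha chain ranged from -0.38 to 0.10 between days, from -0.92 to 0.071 for genotype at day 14 and from -0.68 to 0.31 for the change of the KO effect. The iNKT-type TRBV1 class ranged from -0.14 to 0.79 for genotype over both days, from -0.59 to 1.12 at day 5, from -0.10 to 0.71 at day 14 and from -0.78 to 0.93 for the change of the KO effect, and TRBV1 within iNKT-type cells from -0.45 to 0.69 for genotype. Median TRB UMIs ranged from -0.571 to 1.36, the genotype difference in the share of paired cells from -1.16 to 0.0780 and in the share of iNKT-type cells from -7.16 to 1.44 percentage points. With each clonotype counted once TRBV29 with another alpha chain was 0.37 between days and iNKT-type TRBV1 was -0.031 for genotype at day 14. For the change of the KO effect, TRBV1 with another alpha chain was -0.14 with chains of 2 or more UMIs and TRBV29 with another alpha chain was 0.32 without possible doublets. TRBJ1-1 was -0.076 in day 5 libraries, TRBJ2-3 was -0.21 in TRBV29 cells, and hydropathy was 0.118 above the other iNKT-type cells. The causes were not tested.

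The labels give each group replicates 1 and 2 and do not tie the numbers to each other. Deviations of libraries with the same number correlated at -0.437 to 0.232 over 6 pairs of groups, so the numbers were not used as pairs. With a replicate block 12 classes were called between days and 0 in each genotype comparison. The set has 5 to 9 cells per library at day 14, which limits every statement about that day. The comparisons with other iNKT-type cells, alpha classes within 1 day, the equal-cell clone share, the thinned second TRA share and the TRBV29 to TRBV1 ratio were added after the data were seen.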
